A study of Mus musculus domesticus with 6 samples.

Results

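The genes followed were the HOX factors Hoxa5, Hoxa7, Hoxa9, Hoxa10 and Hoxb4, their partner factors Meis1 and Pbx3, and the coregulator Mn1, here called the HOXA, MEIS, PBX and MN1 programme. They were taken by symbol, through the Ensembl gene identifier without its version, and are 8 of the 55359 entries measured in each library. The set was selected on earlier results for its expected counts and TPM in these same 6 libraries, so its difference between the groups is given as a description. The cells were BFU-E (erythroid burst-forming units, early progenitors bound for the red blood cell line), sorted from mouse fetal liver at E14.5. Total RNA was sequenced from 3 Cre-positive embryos (Exosc3 fl/fl Cre+) and 3 Cre-negative embryos (Exosc3 fl/fl Cre-), all of the strain named Exosc3-floxed and Vav1-Cre. Both groups thus carry homozygous floxed alleles of Exosc3, a subunit of the RNA exosome, which trims and degrades RNA. In the Cre-positive group the Vav1 promoter drives the recombinase in blood cells at large and not in BFU-E alone. The gate was GFP+ Lin- Kit+ with the CD24/71 10%low fraction, and the labels do not say how GFP was used for Cre-negative embryos. By the design text the samples came in pairs from 3 litters, and nothing in the labels says that a replicate number marks a litter.

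HOX genes lie in clusters and encode transcription factors that bind DNA through a homeodomain. MEIS and PBX proteins belong to the TALE homeodomain family and bind DNA together with HOX proteins, and MN1 is a transcriptional coregulator without a homeodomain that acts at many of the same genes in human and mouse leukaemia. The programme is known to be active in blood stem and multipotent cells, to be turned down as blood cells mature, and to be kept on in leukaemias driven by MLL fusions.

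The homeobox is what joins the members other than Mn1, and the stretches of Hoxa5, Hoxa10, Meis1 and Pbx3 are shown because they set the HOX and TALE types side by side. Each line gives 60 bases of the coding strand, 5′ to 3′, around the helix that reads DNA, and the capitals mark the codons for tryptophan, phenylalanine, any residue and asparagine that were searched for in frame. The sequences come from GENCODE M21 transcripts, which are on the build GRCm38, and were matched by gene identifier.
Hoxa5: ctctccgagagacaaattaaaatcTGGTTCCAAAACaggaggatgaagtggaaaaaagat
Hoxa10: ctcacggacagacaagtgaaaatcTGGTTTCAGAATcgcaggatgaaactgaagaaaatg
Meis1: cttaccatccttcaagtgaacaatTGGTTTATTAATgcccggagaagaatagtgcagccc
Pbx3: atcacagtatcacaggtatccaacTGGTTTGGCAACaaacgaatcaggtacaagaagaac
Mn1: no homeobox and no such run.
Hoxa5 and Hoxa10 differed at 17 of the 60 bases. Meis1 differed from Hoxa5 at 37 and from Hoxa10 at 28, Pbx3 differed from each of them at 30, and Meis1 and Pbx3 differed from each other at 32, so these TALE stretches stood as far from each other as from the HOX ones. The HOXA genes are on chromosome 6, Hoxb4 and Meis1 on chromosome 11, Pbx3 on chromosome 2 and Mn1 on chromosome 5.

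The libraries held between 89629949 and 124931215 expected counts, the reads that RSEM's model assigns to genes. The targeted gene Exosc3 was measured at 26.8, 22.1 and 30.2 CPM in Cre-positive libraries 1, 2 and 3, against 51.9, 44.3 and 48.0 CPM in Cre-negative libraries 1, 2 and 3 (CPM scales counts to the TMM-adjusted library size). All Cre-positive values lay below all Cre-negative ones, and the log2 fold change was -0.87 (SE 0.22) with an adjusted p of 0.259 by edgeR's quasi-likelihood test. The reporter eGFP had between 3311 and 4884 reads in the Cre-positive libraries and between 0 and 197 in the Cre-negative ones. Of 18 erythroid markers, 18 had reads, and the progenitor genes Kit, Klf1 and Gata1 averaged 346 ± 10.5, 288 ± 52.7 and 104 ± 2.84 CPM in Cre-positive libraries, against 395 ± 26.7, 239 ± 26.0 and 99.5 ± 25.03 CPM in Cre-negative libraries (SD, n = 3 each). The markers of late red cells Hbb-bt, Slc4a1 and Alas2 averaged 3.23 ± 3.33, 0.549 ± 0.481 and 1.46 ± 1.27 CPM in Cre-positive libraries and had no reads in any Cre-negative library. Each was seen in 2 of the 3 Cre-positive libraries, averaged 182.5, 33 and 87.7 reads over all libraries, and was too low to be tested. The globin gene Hba-a1 averaged 1.39 ± 1.20 CPM in Cre-positive libraries and 2.36 ± 0.641 CPM in Cre-negative libraries. Reads were not counted by molecule. Genes with reads in a single library had 108 reads at the median, so 108 reads are taken here as roughly 1 captured molecule, and limits set from read counts cover counting error only.

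The HOX programme detected in these cells was narrow. Of the 39 genes in the 4 mouse Hox clusters, 8 had any read in the 6 libraries and 31 had none. The A cluster supplied 7 of the 8, with 4832 reads over the Cre-positive libraries and 8615 over the Cre-negative ones. From the B cluster Hoxb4 alone was seen, with 603 reads over the Cre-positive libraries and 176 over the Cre-negative ones, and the 9 genes of the C cluster and the 9 of the D cluster had 0 reads in every library. By counting error a count of 0 allows up to 3 of the unit counted in a library. With the captured molecule as that unit, this is up to 3 molecules, so low levels of the genes without reads are not excluded. Beyond the 5 HOX members, Hoxa3 had 588 reads in Cre-negative library 2, Hoxa4 had 47 in Cre-negative library 3 and Hoxa6 had 36 in Cre-negative library 1, and none of these genes had a read in a Cre-positive library. Hoxa4 and Hoxa6 thus had fewer than the 108 reads taken here as roughly 1 captured molecule, which is a median and no lower limit. Of 9 noncoding RNA genes of the clusters that matched an entry, Hotairm1, a myeloid transcript of the A cluster, had 80 reads in Cre-negative library 2, and the other 8 had none.

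**Figure D1:**
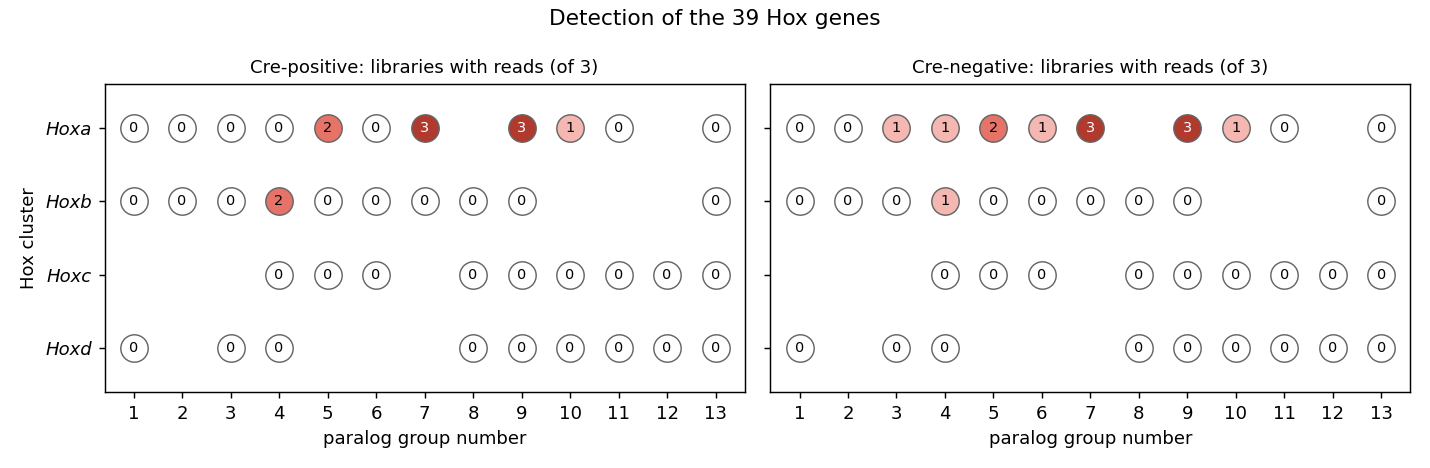
Number of libraries (of 3) in which each of the 39 Hox genes had at least 1 read, with Cre-positive libraries on the left and Cre-negative libraries on the right; rows are the clusters and columns the paralog group number. Hoxa7 and Hoxa9 were seen in every library, Hoxb4 was the only gene seen outside the A cluster, and the C and D rows are empty.

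Measured per transcript length, the partner factors were the most abundant members. In TPM, the deposited level that is scaled for length, Pbx3 averaged 17.8 ± 7.26 in Cre-positive libraries and 20.6 ± 10.7 in Cre-negative libraries, and Meis1 averaged 13.5 ± 3.76 TPM in Cre-positive libraries and 17.2 ± 9.06 TPM in Cre-negative libraries (SD, n = 3 each, here and below). In Cre-positive libraries they were followed by Hoxa9 at 7.71 ± 7.99, Hoxa7 at 4.44 ± 2.78, Hoxb4 at 0.857 ± 1.19, Hoxa5 at 0.62 ± 0.805, Mn1 at 0.38 ± 0.14 and Hoxa10 at 0.12 ± 0.208 TPM. Along that order the ranges of neighbours overlapped at every step but one: the lowest Hoxa7 value, 2.28 TPM, lay just above the highest Hoxb4 value, 2.22 TPM. In Cre-negative libraries the order after Meis1 was Hoxa7 at 11.9 ± 2.5, Hoxa9 at 4.32 ± 2.00, Mn1 at 3.9 ± 2.05, Hoxa5 at 1.59 ± 1.70, Hoxa10 at 0.397 ± 0.687 and Hoxb4 at 0.28 ± 0.485 TPM. There the one step without overlap was between Hoxa7, with 9.1 TPM or more, and Hoxa9, with 6.61 TPM or less. Mn1 thus stood next to last in Cre-positive libraries and level with Hoxa9 in Cre-negative libraries. Among all entries ranked by mean TPM over the 6 libraries, 9.82% were above Pbx3, 11.1% above Meis1, 14.4% above Hoxa7 and 25.9% above Hoxa10.

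Hoxa9, the HOX factor best known for holding progenitors in a self-renewing state, was measured at 8.09, 0.644 and 8.93 CPM in Cre-positive libraries 1, 2 and 3, against 3.17, 4.05 and 4.42 CPM in Cre-negative libraries. Cre-positive libraries 1 and 3 lay above every Cre-negative library and Cre-positive library 2 below them all, so the groups overlapped. In reads these were 1005, 57 and 1030 in Cre-positive libraries, against 305, 425 and 549 in Cre-negative libraries. They come to roughly 9.3, 0.53 and 9.5 captured molecules in Cre-positive libraries, and 2.8, 3.9 and 5.1 in Cre-negative libraries. The means were 5.89 ± 4.56 CPM in Cre-positive libraries and 3.88 ± 0.643 CPM in Cre-negative libraries, and the log2 fold change of 0.60 was smaller than its SE of 1.00. Hoxa10, its neighbour in the cluster, known in mouse for holding back red cell and megakaryocyte maturation when overexpressed, had 83 reads in Cre-positive library 3 and 176 in Cre-negative library 3, and 0 reads in each of the other 4 libraries. It was the single member that failed the filter on low counts and has no fitted value.

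Hoxa7, a middle gene of the A cluster that is also kept on by MLL fusions, was measured at 11.7, 3.44 and 5.22 CPM in Cre-positive libraries 1, 2 and 3, against 18.8, 13.7 and 20.1 CPM in Cre-negative libraries. All Cre-positive values lay below all Cre-negative ones, with Cre-positive library 1 the nearest to them. The means were 6.77 ± 4.32 CPM in Cre-positive libraries and 17.5 ± 3.42 CPM in Cre-negative libraries, a 2.59-fold lower level, with a log2 fold change of -1.37 (SE 0.52) and an adjusted p of 0.512 by edgeR.

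Hoxa5, reported in human progenitors to favour myeloid over erythroid fate, had 59, 0 and 245 reads in Cre-positive libraries 1, 2 and 3, against 184, 0 and 560 in Cre-negative libraries. In both groups library 2 had none and library 3 had the most, and the groups overlapped. Hoxb4, known for expanding blood stem cells when overexpressed, had 90, 0 and 513 reads in Cre-positive libraries and 0, 176 and 0 in Cre-negative libraries. It was seen in 2 of the 3 Cre-positive libraries and in 1 of the 3 Cre-negative ones, with overlap at 0. The log2 fold changes, -1.30 (SE 2.47) for Hoxa5 and 1.62 (SE 2.90) for Hoxb4, were smaller than their standard errors.

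Summed, the 5 HOX members made up 20.9, 4.08 and 21.4 CPM in Cre-positive libraries 1, 2 and 3, against 23.9, 19.4 and 30.5 CPM in Cre-negative libraries. Cre-positive libraries 1 and 3 fell inside the Cre-negative range and Cre-positive library 2 far below it. Within that sum the genes were not in a fixed ratio. Per length, Hoxa9 exceeded Hoxa7 in Cre-positive library 3 alone, with 16.71 TPM against 3.47 TPM, while Hoxa7 was the higher of the pair in the other 5 libraries.

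Meis1, which stabilises HOX binding and is known to be needed for fetal blood stem cells and megakaryocytes, was measured at 28.2, 32.2 and 46.4 CPM in Cre-positive libraries 1, 2 and 3, against 24.1, 38.9 and 66.0 CPM in Cre-negative libraries. The lowest and the highest value both came from Cre-negative embryos, and the Cre-positive values lay between them. The means were 35.6 ± 9.52 CPM in Cre-positive libraries and 43.0 ± 21.3 CPM in Cre-negative libraries, and the log2 fold change was -0.27 (SE 0.36). Without Cre-negative library 3 it was 0.18.

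Pbx3, the PBX protein most often found with HOXA9 and MEIS1 in human leukaemia, was measured at 24.6, 9.85 and 33.0 CPM in Cre-positive libraries 1, 2 and 3, against 16.8, 22.0 and 11.8 CPM in Cre-negative libraries. Cre-positive libraries 1 and 3 were the highest of all and Cre-positive library 2 the lowest of all. This was the same arrangement as for Hoxa9, of which Cre-positive library 2 held 57 reads. The log2 fold change was 0.42 (SE 0.46), and it was -0.18 when counts were set against effective transcript length. Without Cre-positive library 2, both Hoxa9 and Pbx3 lay above all Cre-negative libraries. The share of all genes so placed with 2 against 3 libraries was not computed, so this describes their order alone.

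Mn1 had the largest fold between the groups among the tested members. It had 3.21, 1.88 and 1.63 CPM in Cre-positive libraries 1, 2 and 3, against 15.8, 15.9 and 35.2 CPM in Cre-negative libraries. Every Cre-positive library lay far below every Cre-negative one, and Cre-negative library 3 stood above the other two. The means were 2.24 ± 0.852 CPM in Cre-positive libraries and 22.3 ± 11.2 CPM in Cre-negative libraries, a 9.95-fold lower level with a log2 fold change of -3.31 (SE 0.54). The edgeR adjusted p over all 13117 tested genes was 0.0647, just outside the threshold of 0.05, and that of DESeq2 was 3.86e-10. In reads the values were 399, 166 and 188 in Cre-positive libraries and 1518, 1667 and 4372 in Cre-negative libraries, or roughly 3.69, 1.54 and 1.74 captured molecules in Cre-positive libraries and 14.1, 15.4 and 40.5 in Cre-negative libraries. In a bulk sample, fewer cells that contain a transcript and less of it in each cell cannot be told apart.

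**Figure D2:**
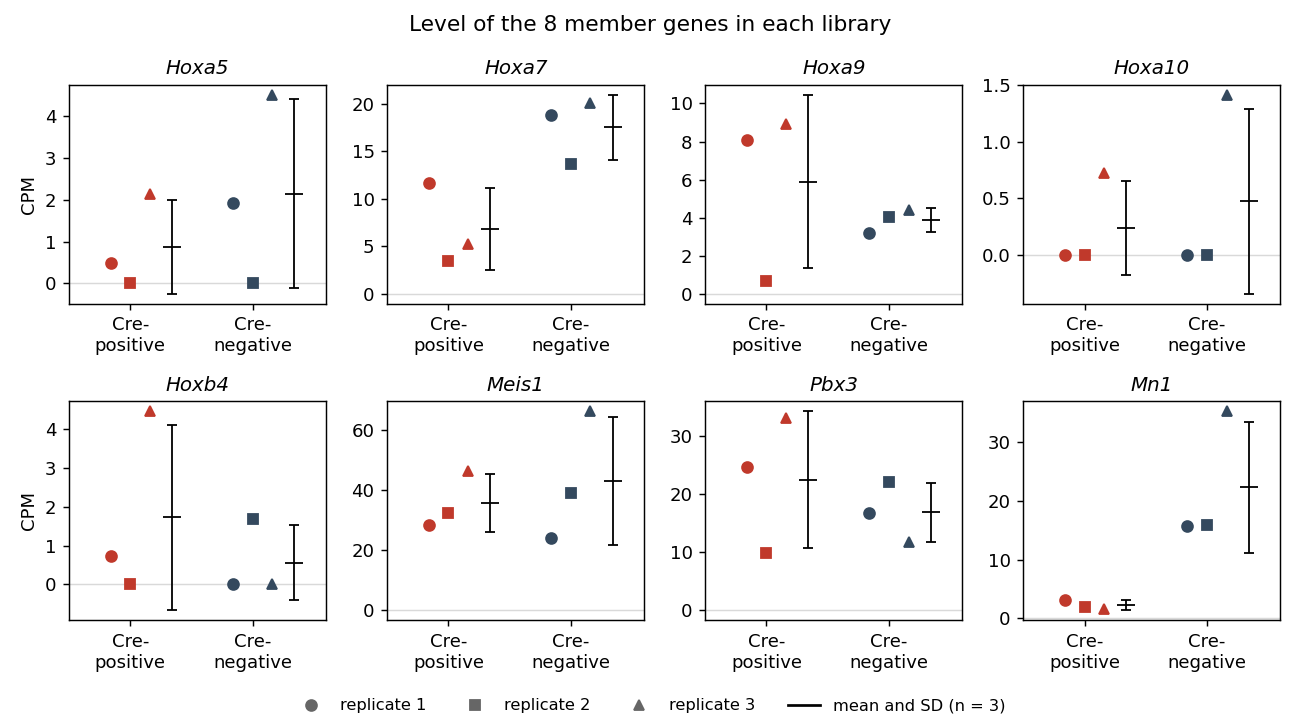
CPM of the 8 members in each library, with Cre-positive libraries in red on the left and Cre-negative libraries in blue on the right of each panel; symbols give the replicate number and the bars the mean and SD of 3 libraries. Mn1 and Hoxa7 are the panels in which the groups do not overlap, and in the Hoxa9 and Pbx3 panels Cre-positive library 2 lies apart from the other Cre-positive libraries.

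Of the 7 members tested, edgeR called 0 at an adjusted p under 0.05, where 0.122% of all tested genes were called. At an unadjusted p under 0.05 there were 2, Hoxa7 and Mn1, both lower, beside 8.23% of all tested genes in either direction and 4.19% in that direction. DESeq2 called 1, Mn1, lower, beside 3.5% of the genes to which it gave an adjusted p and 1.68% in that direction. The groups did not overlap for 2 members, the same pair, both lower, beside 15.2% of all tested genes (7.53% higher and 7.66% lower). The members were chosen with earlier results of these data known, so these counts describe them and are no test. The 7 log2 fold changes had a median of -0.27, with 3 above 0 and 4 below, and the median over all tested genes was -0.01. The members' median rested on single libraries: it was 0.18 without Cre-negative library 3, and -0.94 and -0.93 without Cre-negative library 1 and without Cre-negative library 2, where 8 members passed the filter. Without Cre-positive library 3 it was -0.62.

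The programme also varied from embryo to embryo within each group. Cre-positive library 3 had reads for all 8 members and Cre-positive library 2 for 5. Cre-negative library 3 had the highest value of 5 members and Cre-positive library 3 that of the other 3, while Cre-positive library 2 had or shared no highest value and was the sole lowest for 3. The sum over the 8 members was 77.0, 48.1 and 102 CPM in Cre-positive libraries 1, 2 and 3, against 80.5, 96.2 and 143 CPM in Cre-negative libraries, and these ranges overlapped.

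**Figure D3:**
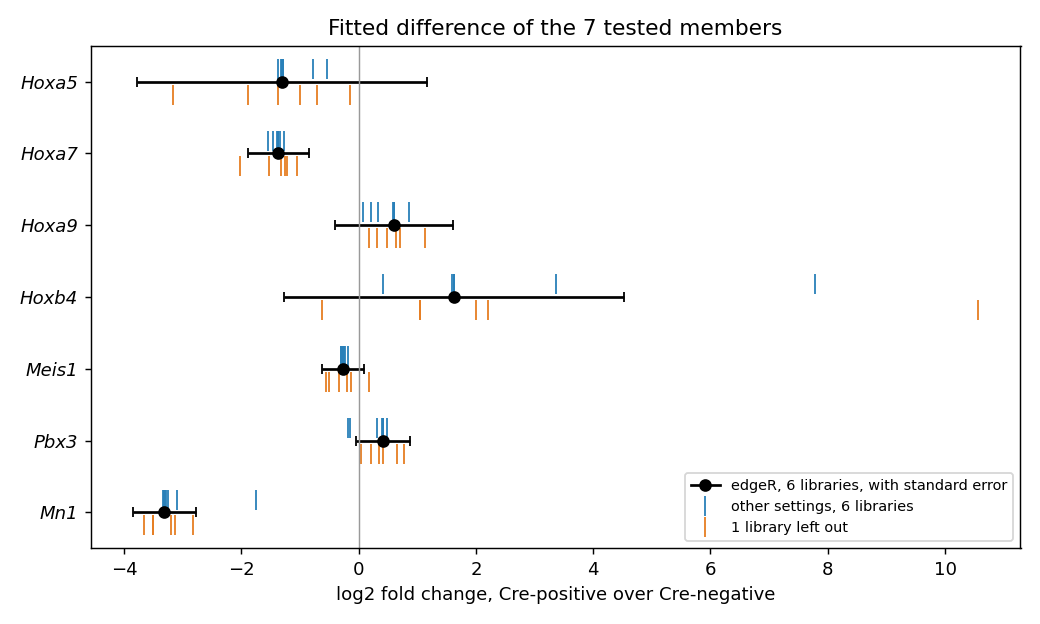
Log2 fold change, Cre-positive over Cre-negative, of the 7 tested members. Black points and bars give the edgeR estimate with its standard error. Blue ticks give the estimate under other settings with 6 libraries, 1 of them a difference of log2(TPM + 1), and orange ticks the edgeR estimate with 1 library left out. Mn1, Hoxa7 and Hoxa5 stay below 0 in all of these and Hoxa9 above 0, and Hoxb4, Meis1 and Pbx3 cross 0.

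How reads were shared among transcripts of a gene bore on Hoxa9 and Pbx3. The effective length that the deposited tables give, averaged over the transcripts to which reads were assigned, was 1770, 494 and 595 bases for Hoxa9 in Cre-positive libraries 1, 2 and 3, against 1033, 685 and 1764 bases in Cre-negative libraries. It thus moved 3.58-fold with no order by group. For Pbx3 it was 1067, 1032 and 2084 bases in Cre-positive libraries and 598, 1201 and 1368 bases in Cre-negative libraries. Accordingly, Pbx3 was lower in mean TPM in Cre-positive libraries while it was higher in mean CPM, and Hoxa9 in Cre-negative library 3 had more CPM than in Cre-negative library 2 (4.42 and 4.05) but less TPM (2.91 and 6.61). Mn1, Hoxa7, Hoxa5 and Hoxb4 had nearly the same length in each library, and Meis1 ranged over 1.16-fold.

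**Figure D4:**
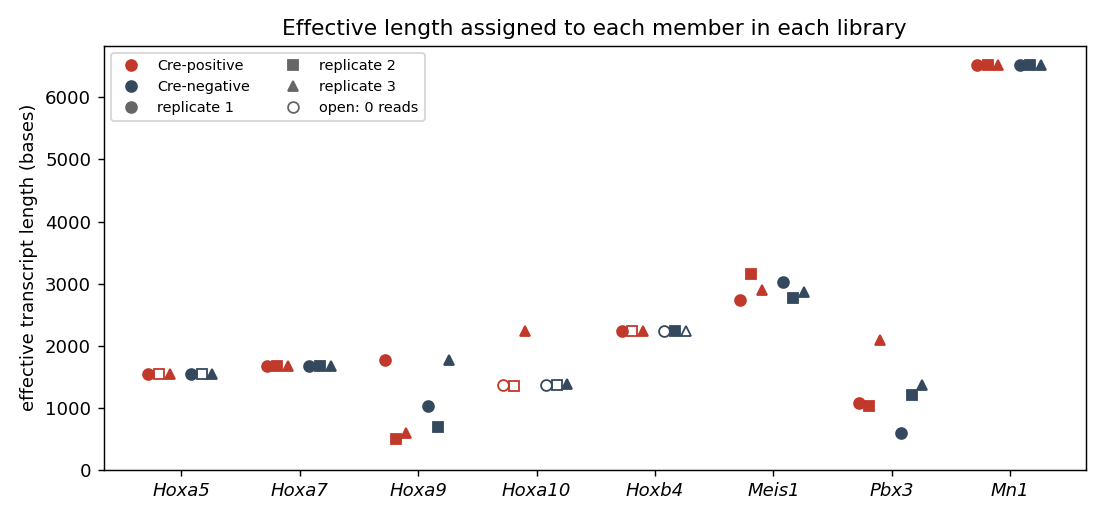
Effective transcript length in bases of each member in each library, as deposited by the authors; red symbols are Cre-positive and blue symbols Cre-negative libraries, and open symbols mark libraries with 0 reads of that gene. Hoxa9 and Pbx3 spread over more than 3-fold, whereas Mn1 and Hoxa7 form single levels.

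Several members share their locus with other annotated genes. On the same strand, the unclassified transcript Gm43119 lies over Mn1, and it had 158, 0 and 339 reads in Cre-positive libraries 1, 2 and 3, against 0, 173 and 279 in Cre-negative libraries. Its totals were 497 reads over the Cre-positive libraries and 452 over the Cre-negative ones, while those of Mn1 differed widely. Within Meis1, Gm37818 had 546, 205 and 21 reads in Cre-positive libraries and 63, 0 and 96 in Cre-negative libraries, and 2900018N21Rik had 0, 42 and 356 reads in Cre-positive libraries and 0, 0 and 461 in Cre-negative libraries. Meis1 had 3505, 2853 and 5345 reads in Cre-positive libraries and 2317, 4080 and 8205 in Cre-negative libraries, so Gm37818 was largest beside it in Cre-positive library 1. Another transcript within Meis1, 2610001A08Rik, had 75 reads in Cre-positive library 2 alone. Hoxa3, which overlaps Hoxa5 on the same strand, had its 588 reads in Cre-negative library 2, where Hoxa5 had 0. The antisense genes that overlap members, Hoxaas3, Gm16140, Gm16141 and C79798, had 0 reads in every library. Of all runs of 50 bases in the members' transcripts, those found also in transcripts of other genes were 0% for Hoxa5, Hoxa7, Hoxa10, Pbx3 and Mn1, 0.646% for Hoxa9, 0.437% for Hoxb4 and 9.16% for Meis1.

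Relatives of Meis1 and Pbx3 were present beside them. Of 7 other PBX, MEIS and PKNOX genes, 4 were tested and edgeR called 0. Pbx2, a widely expressed PBX gene, averaged 53.9 ± 8.68 CPM in Cre-positive libraries and 44.7 ± 9.29 CPM in Cre-negative libraries, with a log2 fold change of 0.27 (SE 0.22). Pknox1, a TALE partner of PBX, and Pbx4 had log2 fold changes of 0.20 (SE 0.28) and 0.51 (SE 0.71). All 4 estimates were above 0, with 0 of the 4 at an unadjusted p under 0.05 and 0 called by DESeq2. Their median was 0.23, and it turned to -0.22 with effective length offsets and to -0.03 on log2(TPM + 1), so no direction is given for these genes. Without Cre-negative library 3 it was 0.61. Meis2 had 71 reads in Cre-negative library 3, Meis3 had 54 in Cre-positive library 1 and Pknox2 had none, so that Meis1 was the one MEIS gene with reads in more than 1 library. Per length, Pbx2 averaged 42.7 ± 10.2 TPM in Cre-positive libraries and 32.6 ± 15.4 TPM in Cre-negative libraries.

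Genes that keep the HOXA cluster on or off were measured in full. Of 20 regulators around MLL and DOT1L, which maintain HOXA and MEIS1 transcription, all 20 were tested and edgeR called 0, and at an unadjusted p under 0.05 there were 1 higher (Nup98) and 1 lower (Wdr5). Of all tested genes, 4.05% rose and 4.19% fell by that same unadjusted threshold. DESeq2 called 1 lower, Wdr5, beside 1.68% of the genes with a DESeq2 adjusted p. The median log2 fold change of these regulators was -0.05. Wdr5, a core subunit of the MLL complexes, averaged 67.1 ± 2.84 CPM in Cre-positive libraries and 90.7 ± 6.14 CPM in Cre-negative libraries (log2 fold change -0.44, SE 0.14), with an adjusted p of 0.383 by edgeR and 0.046 by DESeq2. Nup98, a nuclear pore gene whose fusions drive HOXA genes, averaged 240 ± 13.5 CPM in Cre-positive libraries and 199 ± 18.5 CPM in Cre-negative libraries (log2 fold change 0.27, SE 0.11). Mllt3, a reader of acetylated chromatin that joins the DOT1L complex, averaged 76.0 ± 22.5 CPM in Cre-positive libraries and 54.8 ± 8.66 CPM in Cre-negative libraries (log2 fold change 0.47, SE 0.23), and it also stands in the list of stem markers. Of 20 Polycomb genes and their opponents, which repress or free Hox clusters, all 20 were tested and edgeR and DESeq2 called 0, with 0 at an unadjusted p under 0.05, and the median was -0.14. The smallest p-values belonged to Eed at -0.33 (SE 0.17), Rnf2 at -0.34 (SE 0.18) and Cbx8 at -1.80 (SE 1.02). Cbx8 had the largest ratio of these, with 1.63 ± 0.820 CPM in Cre-positive libraries and 5.68 ± 0.685 CPM in Cre-negative libraries, from 104 to 223 reads per Cre-positive library.

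Genes reported elsewhere as targets of HOXA9 or MEIS1 in progenitors or leukaemia models had 16 estimates below 0 and 3 above it, with no call by edgeR, where all tested genes had 6658 below and 6459 above. Of 20 such genes 19 were tested, 0 were called by edgeR, 6 were lower and 0 higher at an unadjusted p under 0.05, beside 4.19% of all tested genes lower. DESeq2 called 4 lower, beside 1.68% of all genes to which it gave an adjusted p. Their median log2 fold change was -0.26, and it ran from -0.99 without Cre-positive library 3 to -0.11 without Cre-negative library 3. It was -0.17 without Cre-positive library 1, -0.43 without Cre-positive library 2, -0.46 without Cre-negative library 1, -0.66 without Cre-negative library 2 and -0.63 with effective length offsets. Sox4, a transcription factor of immature cells, was measured at 74.5, 68.0 and 83.3 CPM in Cre-positive libraries 1, 2 and 3, against 129, 106 and 190 CPM in Cre-negative libraries. Flt3, the receptor of early lymphoid and myeloid progenitors, was measured at 7.04, 11.2 and 23.7 CPM in Cre-positive libraries, against 37.3, 44.7 and 94.1 CPM in Cre-negative libraries. In both genes the groups did not overlap and Cre-negative library 3 was the highest, as it was for Mn1. Myc, the growth factor-induced transcription factor, averaged 257 ± 27.4 CPM in Cre-positive libraries and 347 ± 16.9 CPM in Cre-negative libraries. Bcl2, the survival gene, averaged 9.32 ± 4.15 CPM in Cre-positive libraries and 25.03 ± 5.72 CPM in Cre-negative libraries. By edgeR the log2 fold changes were -0.91 (SE 0.21) for Sox4, -0.43 (SE 0.10) for Myc, -2.07 (SE 0.49) for Flt3 and -1.43 (SE 0.42) for Bcl2, with adjusted p between 0.214 and 0.314. DESeq2 gave adjusted p of 9.98e-05 for Sox4, 0.000426 for Myc, 0.0105 for Bcl2 and 0.0596 for Flt3. Flt3 is also in the list of stem and multipotent markers, together with Cd34, Hlf and Mecom, so the lists are not independent.

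Markers of other blood cells are given beside Mn1, Hoxa7 and these targets, and the Lin- gate named in the labels would remove mature cells of those lines. The counts that follow stand beside 4.19% of all tested genes lower at an unadjusted p under 0.05 and 1.68% lower by DESeq2. Of 14 neutrophil and monocyte markers 11 were tested, 0 were called by edgeR, 5 were lower at an unadjusted p under 0.05 and 3 by DESeq2. Of the 11 estimates 10 were below 0, Cebpa among them at -0.01 (SE 1.96), and Elane at 0.39 (SE 2.87) was above it. Ly6c2 was at 0 in all libraries. Cebpe, which averaged 57.5 reads over all libraries, was at 0 in the Cre-positive ones. The summed level of the 14 markers was between 242 and 549 CPM in Cre-positive libraries and between 603 and 1587 CPM in Cre-negative libraries. Most of that sum was Mpo, the granule peroxidase, which averaged 305 ± 152 CPM in Cre-positive libraries and 912 ± 429 CPM in Cre-negative libraries. Of 10 lymphoid markers 6 were tested, edgeR called 0, 2 were lower at an unadjusted p under 0.05 and 1 by DESeq2. The lymphoid sum was between 3.30 and 9.34 CPM in Cre-positive libraries and between 40.8 and 132 CPM in Cre-negative libraries, and Dntt and Cd3e were at 0 in all libraries. Cd79a, which averaged 86.5 reads over all libraries, was at 0 in the Cre-positive ones. Of 15 stem and multipotent markers 13 were tested, edgeR and DESeq2 called 0 and 2 were lower at an unadjusted p under 0.05, and their sum was between 208 and 452 CPM in Cre-positive libraries and between 371 and 726 CPM in Cre-negative libraries. Of 18 erythroid markers 15 were tested and edgeR called 1, Car2, higher, beside 0.122% of all tested genes, all of them higher. At an unadjusted p under 0.05 there were 2 higher, Car2 and Cd24a, and 0 lower, beside 4.05% of all tested genes higher. DESeq2 also called Car2 alone, higher, beside 3.5% of its genes in either direction. Car2, a carbonic anhydrase of red cells, averaged 483 ± 67.3 CPM in Cre-positive libraries and 226 ± 18.8 CPM in Cre-negative libraries (adjusted p of 0.00787 by edgeR). With Cre-positive library 1 or 2 left out, 0 erythroid markers were called, and likewise with effective length offsets. The erythroid sum was between 2280 and 2870 CPM in Cre-positive libraries and between 1967 and 2461 CPM in Cre-negative libraries.

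Cre-negative library 3, highest for Mn1, Hoxa7, Meis1, Hoxa5 and Hoxa10, had the highest neutrophil and monocyte, lymphoid and stem sums and the lowest erythroid sum. Among the Cre-positive libraries, library 3 had the highest of the same 3 sums and the lowest Mn1 value, and library 1 had the highest Mn1 and Hoxa7 values and the lowest lymphoid sum. The neutrophil and monocyte sum was 549 CPM in Cre-positive library 3, with Mpo at 481, and 603 CPM in Cre-negative library 2, with Mpo at 512. In the same order, the stem sums were 452 and 371 CPM and the Mn1 values 1.63 and 15.9 CPM. These 2 libraries were picked by their values and stand for no others. The lymphoid sums of the same libraries were 9.34 and 40.8 CPM. The part of these markers' cells in the differences of Mn1, Hoxa7 and the targets was not tested. Megakaryocyte markers summed to between 60.5 and 98.0 CPM in Cre-positive libraries and between 42.1 and 86.0 CPM in Cre-negative libraries, with 0 of 7 tested called by edgeR. Mast cell, basophil and eosinophil markers summed to between 3.12 and 12.9 CPM in Cre-positive libraries and between 2.63 and 10.4 CPM in Cre-negative libraries, with 4 of 8 at 0 in all libraries. Hepatocyte markers summed to between 2.17 and 3.30 CPM in Cre-positive libraries and between 1.08 and 10.1 CPM in Cre-negative libraries, with 5 of 8 at 0 in all libraries. Endothelial and stromal markers summed to between 8.29 and 23.0 CPM in Cre-positive libraries and between 19.2 and 41.2 CPM in Cre-negative libraries, with 3 of 8 at 0 in all libraries.

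**Figure D5:**
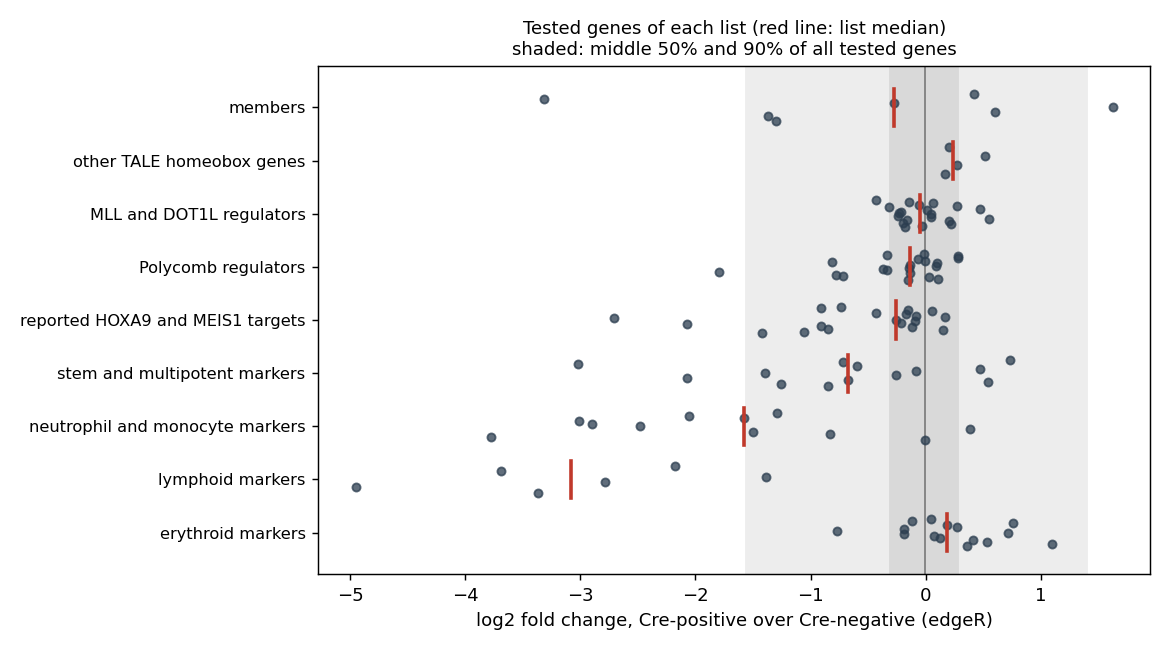
Log2 fold change, Cre-positive over Cre-negative, of each tested gene in 9 of the gene lists; red lines are list medians and the shading the middle 50% and 90% of all tested genes. The MLL and DOT1L, Polycomb and other TALE genes gather near 0, and the neutrophil and monocyte and the lymphoid markers spread to the left with medians of -1.58 and -3.08.

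The genes whose profile was most like that of Meis1 and Pbx3, the members with the highest mean CPM, were found by comparing log2 CPM values, centred on each gene's mean, over the 6 libraries among 8337 genes that averaged 1000 counts or more. For Meis1 they were Map3k11, a kinase of the JNK pathway, Reep3, a protein of the endoplasmic reticulum, and Zc3h10, a zinc finger gene, with mean absolute differences of 0.126, 0.129 and 0.130. For Pbx3 they were Cisd1, an iron-sulphur protein of mitochondria, Arf5, a small GTPase of the Golgi, and Rps19-ps6, a pseudogene whose reads may belong to copies of Rps19, with 0.154, 0.161 and 0.174. None of the 6 was a member or belonged to the lists above, and with 6 libraries such likeness is a description of order and size alone.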

How the data were processed

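Per the labels, the Qiagen RNeasy Micro kit gave RNA from sorted BFU-E and libraries were prepared with the Takara SMARTer Stranded Total RNA-Seq Pico kit. STAR 2.5.3a, RSEM 1.3.0 and the build GRCm39 are named in the submitters' processing notes, while the sources used here name no annotation release and no strand setting. Each deposited table lists, per the file headers, an expected count, a TPM value and an effective length per gene. Expected counts, of which 2.64% were not whole, were rounded. Genes were kept by filterByExpr (13117) and tested with edgeR 4.0.16 (glmQLFit and glmQLFTest, TMM factors from 0.988 to 1.017) in R 4.3.3 over all 6 libraries, with p-values adjusted by Benjamini-Hochberg over all genes tested. The common biological coefficient of variation was 85.4%, and log2 CPM correlated at 0.903 to 0.935 between libraries, across genes. DESeq2 1.42.0 and limma 3.58.1 served as alternatives. The authors' deposited TPM values are used to describe levels per length, and the one test on them was limma on log2(TPM + 1). Of the entries 3278 matched no symbol and were kept by identifier. Scripts were tested on simulated data. Nothing in the labels says how far the embryos were handled apart, so p-values measure the spread between these samples. The members and the 15 lists were chosen with earlier results of these data known. All members, Exosc3 and eGFP were named, then from each list the tested genes with the smallest p: 4 for other HOX, other TALE and target genes, 3 for MLL and DOT1L and for Polycomb genes, 2 for each marker list. The erythroid and untested markers named besides were chosen after their values were seen. Some genes and sequences of these lists are not reported here. Coordinates are not given because the annotation at hand is of another build.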

Additional observations from a re-analysis of the deposited data

How the results depend on the processing

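The 8 members were compared under 10 other settings and with each library left out in turn. edgeR called 16 genes over all genes, with 16 higher and 0 lower, and this was 453 with DESeq2, 39 without the filter, 84 when genes had to average 1000 counts, 6 with effective length offsets, 110 on counts per captured molecule, 8 with limma on log2(TPM + 1), and 7 to 16 with 1 library left out, lowest without Cre-positive library 2 (7) and next without Cre-positive library 1 (9). Mn1 alone among the members was called, 1 of them, by DESeq2 (log2 fold change -3.31, adjusted p 3.86e-10), without the filter (-3.31, 0.0274), at a mean of at least 1000 counts (-3.32, 0.00834) and per captured molecule (-3.09, 0.00396). On counts its log2 fold change ran from -3.67 to -2.82 over the alternatives. On log2(TPM + 1) the difference was -1.76, a measure in which the added 1 shrinks the fold of a gene with low values. The adjusted p of Mn1 ran to 0.411 over all alternatives. With 1 library left out 0 members were called, and 2 to 4 members had groups that did not overlap, 4 without Cre-positive library 2. The share of all genes without overlap was not computed with 1 library left out, so these counts have nothing to stand beside. Hoxa7 ran from -2.02 to -1.06. Direction turned for Hoxb4 without Cre-positive library 3 (-0.62), for Meis1 without Cre-negative library 3 (0.18, with a range from -0.56 to 0.18 when 1 library was left out) and for Pbx3 with effective length offsets (-0.18) and with log2(TPM + 1) (-0.15). Hoxb4 also reached 10.57 without Cre-negative library 2, when it had no reads left in that group. Exosc3 passed with DESeq2 (-0.87, adjusted p 0.00325) and ranged from -0.98 to -0.75 with 1 library left out. Targets called were 4 with DESeq2, 2 at a mean of at least 1000 counts and 3 per captured molecule. In the same order, these settings called 453 of 12961, 84 of 8338 and 110 of 8385 genes in all. Neutrophil and monocyte markers called were 3 of 10, 1 of 5 and 2 of 5 tested under the same settings. Lymphoid markers called were 1 of 5, 1 of 2 and 1 of 1 tested, and stem markers 2 and 2 in the last pair of settings. DESeq2 called 1 of the 20 MLL and DOT1L genes. Lymphoid markers ranged from 0 to 1 with 1 library left out (1 without Cre-positive library 3), and erythroid markers from 0 to 1 (0 without Cre-positive library 1 or 2), and the erythroid count was 0 with effective length offsets and with log2(TPM + 1). In their deviations from the group mean, same-numbered libraries correlated at 0.0221, 0.0625 and 0.0961, and the other pairs at -0.0752 to 0.0161. Each library thus correlated best with its own number. These small values do not settle whether a replicate number marks a litter. The fit with a replicate block called 56 genes, 38 higher and 18 lower, 0 members (Mn1 at an adjusted p of 0.0752), 1 target (Flt3, log2 fold change -2.13, adjusted p 0.0105, which is also 1 of the 2 stem markers called, beside Hmga2) and 1 neutrophil and monocyte marker (Mpo, -1.57, 0.000868). The other HOX genes, the noncoding RNAs and Hoxa10 did not pass the filter with all 6 libraries, so their fits were not compared across settings. The cause of these shifts was not tested. Precision is low for Hoxa5, Hoxa10 and Hoxb4, whose reads come to at most 5.19 captured molecules in a library by the estimate used here. It is also low for Mn1 in the Cre-positive libraries, at 1.54 to 3.69 such molecules. The same holds for Hoxa9 in Cre-positive library 2, at 0.53, and for Hoxa7 in Cre-positive libraries 2 and 3, at 2.8 and 5.6.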
